A study of Mus musculus with 965 samples.

Results

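The day 6 embryoid bodies of the Dnmt3b-null clones 3B126 and 3B77 were compared with each other, cell by cell and as sums of cells. The members were all cells whose names in the deposited table carried the plate of 3B126 at day 6 or the plate of 3B77 at day 6, which gave 58 cells of 3B126 and 71 cells of 3B77, or 129 of the 965 cells of the series. Both clones derive from E14 mouse embryonic stem cells (ESCs), are labelled homozygous for loss of Dnmt3b (3BKO), and were left to form embryoid bodies (EBs), aggregates in which the germ layers arise, by withdrawal of leukemia inhibitory factor (LIF). No further agent was given to either clone. The labels place 3B126 in batch 2 and 3B77 in batch 3, while the 67 wild-type (WT) E14 cells of day 6 belong to batch 2. Day 3 plates of the same clones, with 73 cells of 3B126 and 79 cells of 3B77, are used beside them. Each clone is 1 line, each plate holds cells from pooled EBs of 1 clone, and each clone has 1 plate at day 6. Clone, batch and plate therefore cannot be told apart, no test between the clones is possible, and every difference below compares 2 plates. The sources used here do not say which part of Dnmt3b was deleted, so its reads do not check the label. The plates shared 0 cell names and 0 pairs of cells with identical counts.

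DNMT3A and DNMT3B are the de novo DNA methyltransferases, which place methyl groups on unmethylated CpG dinucleotides as pluripotent cells leave the naive state, and DNMT1 copies the pattern at replication. In EBs, naive cells first become primed epiblast, marked by factors such as Otx2 and Fgf5, and then enter ectoderm or mesoderm and endoderm. Neural progenitors of ectoderm use Sox1, Pax6 and Pax3, of which Pax6 is best known from forebrain, eye and ventral neural tube and Pax3 from dorsal neural tube and neural crest.

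The cells of 3B126 were sequenced more deeply but held fewer detected genes. A 3B126 cell held 51222 to 2109306 assigned reads with a median of 500240.5, against 50096 to 676472 with a median of 312855 in 3B77. The median number of detected genes was 5805.5 in 3B126 and 7203 in 3B77, and it was 3712 in 3B126 and 5216 in 3B77 once each cell was thinned to 50000 reads. Mitochondrially encoded genes took a median of 29.04% of the reads of a 3B126 cell, against 11.9% in 3B77 and 28.6% in WT. The limit of 20% was passed by 42 of the 58 cells of 3B126 and 6 of the 71 cells of 3B77. Levels below are CPM (reads of a gene per 1e6 reads of the plate), scaled with TMM factors of 0.786 for 3B126 and 1.403 for 3B77, and a cell's own level is plain CPM. Plain CPM of the plates lower a log2 ratio by up to 0.84, so that a gene with a ratio between 0 and about that value is higher in 3B126 on the scaled values and lower on plain CPM. A list of genes is therefore read by its distance from the median of all genes, which moved by at most 0.08 on plain CPM.

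Of 7541 genes with at least 10 CPM in a plate, 558 (7.4%) were higher in 3B126 by more than 4-fold and 96 (1.27%) were lower. A gene counts as past 4-fold where the log2 ratio of CPM + 1, 3B126 over 3B77, lies beyond 2 or -2. Past 2-fold the numbers were 1918 higher (25.4%) and 887 lower (11.8%). The median log2 ratio was 0.23, with quartiles of -0.51 and 1.02. The share of the genes past 4-fold that were higher in 3B126 was 85.3%, but it was 17.7% on plain CPM (156 higher, 724 lower) and 21.6% when the cells' own CPM were averaged (129 higher, 468 lower). It was 65.9% without cells over 20% mitochondrial reads (747 higher, 387 lower), when 16 cells of 3B126 and 65 cells of 3B77 remained, and 73.2% without the cell that held most reads of each gene (391 higher, 143 lower). With the limit on low values at 1 CPM it was 73.8%, and at 50 CPM 95.8%. On plain CPM the 156 higher genes were all among the 558, and the 724 lower genes held all of the 96. Without cells over 20% mitochondrial reads, 205 of the 558 and 60 of the 96 were still among the genes past 4-fold in the same direction. With cells thinned to 50000 reads these were 393 of the 558 and 39 of the 96. Of the 60 genes past 4-fold in the gene lists or among the most extreme ratios, 26 fell within 4-fold on plain CPM, all of them higher in 3B126, among them Dnmt3b, Zic5, Lhx2, Peg3, Ddx4, Ccng1 and Pdk1.

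The ratio followed the GC content of the transcripts. From the lowest to the highest of 10 equal groups of GC content, the median log2 ratio at day 6 was 1.11 at 28.8% to 40.1% GC and -0.69 at 55.5% to 73.7% GC. Genes past 4-fold higher in 3B126 numbered 148 in the group lowest in GC and 16 in the group highest in GC, and lower genes 3 and 27. Over genes, which are not independent replicates, the Spearman correlation of the ratio with GC was -0.50 at day 6 and 0.07 at day 3 (7494 genes). The correlation was -0.41 for 3B126 over WT and 0.14 for 3B77 over WT at day 6, and these ratios share plates with the clone comparison. The mean GC of the nuclear reads was 45.2% in 3B126, 47.2% in 3B77 and 46.6% in WT. With this trend removed, 295 genes were higher past 4-fold, or 70.1% of all genes past it, and 257 of the 558 higher and 63 of the 96 lower genes were still past it.

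**Figure D1:**
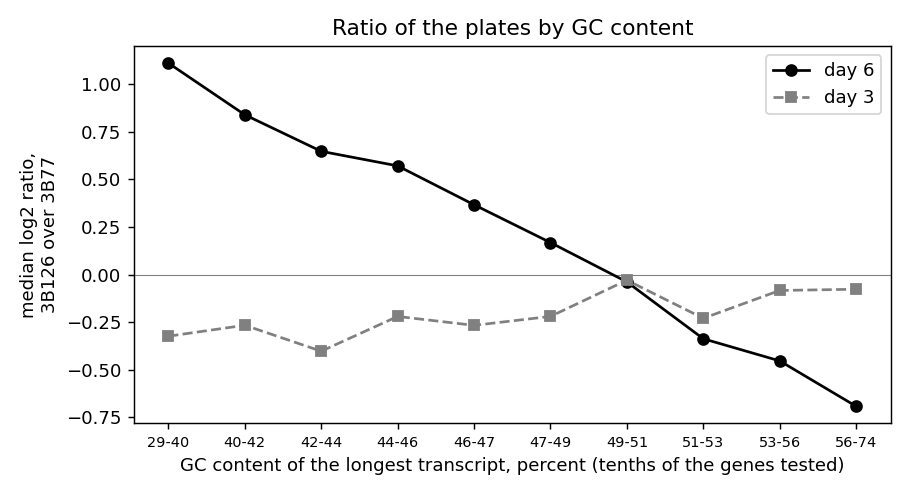
Median log2 ratio of 3B126 over 3B77 (y axis) in 10 groups of genes ordered by the GC content of their longest transcript in percent (x axis), at day 6 (black circles) and day 3 (grey squares). The day 6 line runs from 1.11 at the lowest GC to -0.69 at the highest, and the day 3 line stays between -0.40 and -0.03.

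Most cells of both plates passed the marker limits for epiblast and for neuronal genes at day 6. Few or none passed those for mesoderm, endoderm, endothelium and blood, or fibroblasts. Cells with at least 2 of 7 epiblast markers at 10 CPM or more made up 75.9% of 3B126 (exact 95% interval 62.8 to 86.1) and 76.1% of 3B77 (64.5 to 85.4). Intervals given here are Clopper-Pearson for shares of cells and Poisson for levels, and cover counting error only, since PCR reads without molecular identifiers are not independent molecules. Cells with at least 2 of 7 neuronal markers were 87.9% of 3B126 and 90.1% of 3B77. Many cells therefore passed both of these limits, which do not sort cells into epiblast and neuronal types. Cells with at least 2 of 8 neural progenitor markers were 25.9% of 3B126 (15.3 to 39.04) and 43.7% of 3B77 (31.9 to 55.95), with intervals that overlap. Mesoderm markers reached that limit in 3 cells of 3B126 and 4 cells of 3B77. Endothelium and blood, endoderm and fibroblast markers reached it in no cell, and 0 of 58 in 3B126 is compatible with a true share as high as 6.16%, 0 of 71 in 3B77 with one as high as 5.06%. All 5 endoderm markers (Sox17, Foxa2, Gata6, Gata4 and Ttr) were at 0 reads in 3B126, and 3 of the 5 in 3B77.

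Transcripts of Dnmt3b itself differed between the clones. Dnmt3b (chr2:153649450-153687730, plus strand, GRCm38) measured 47.4 CPM in 3B126 (44.8 to 50.1), against 9.52 CPM in 3B77 (8.45 to 10.7), a log2 ratio of 2.20, and 69.9 CPM in WT. It was at 10 CPM or more in 27 cells of 3B126 (46.6%, 33.3 to 60.1) and 26 cells of 3B77 (36.6%, 25.5 to 48.9). The cell intervals overlap, and the log2 ratio was 1.41 on plain CPM and 1.26 without cells over 20% mitochondrial reads. It was 1.68 after thinning to 50000 reads and 0.96, within 2-fold, when the cells' own CPM were averaged. At day 3 both clones were alike in level, at 31.1 CPM in 3B126 and 30.6 CPM in 3B77. Of the 7 methylation genes tested, Dnmt3b alone lay past 2-fold, and the median log2 ratio of the list was 0.41 beside 0.23 for all genes. Dnmt3a was at 17.9 CPM in 3B126 and 23.4 CPM in 3B77. The maintenance enzyme Dnmt1 was at 88.8 CPM in 3B126 and 102 CPM in 3B77, and Uhrf1, which brings it to replicating DNA, at 125 CPM in 3B126 and 94.1 CPM in 3B77. Of the Tet dioxygenases, which oxidise methylcytosine, Tet1 had 182 CPM in 3B126 and 100 CPM in 3B77, and Tet3 had 36.5 CPM in 3B126 and 20.5 CPM in 3B77. Both Tet ratios lie near the shift between the scalings, and Tet1 had a log2 ratio of 0.02 on plain CPM.

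A small set of cells in each clone carried the naive programme at day 6. Naive ESCs are kept by a network of factors that includes Esrrb, Zfp42, Klf2, Tfcp2l1 and Nr0b1. Counting 16 naive genes per cell, 52 cells of 3B126 held 0 to 2 of them at 10 CPM or more, none held 3 to 8, and 6 held 9 to 13. In 3B77, 64 cells held 0 to 2, 1 cell held 3 and 1 cell held 4, and the other 5 held 8 to 15. Cells with 4 or more were thus 6 of 58 in 3B126 (10.3%, 3.89 to 21.2) and 6 of 71 in 3B77 (8.45%, 3.16 to 17.5), beside 7 of 67 in WT at day 6 (10.4%, 4.30 to 20.3). The shares lie within each other's intervals, and thinning every cell to 50000 reads left 6 such cells in 3B126 and 6 in 3B77. The limit of 4 was chosen with these counts known. At day 3, cells above the same limit were 41.1% of 3B126 (29.7 to 53.2) and 49.4% of 3B77 (37.9 to 60.9).

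**Figure D2:**
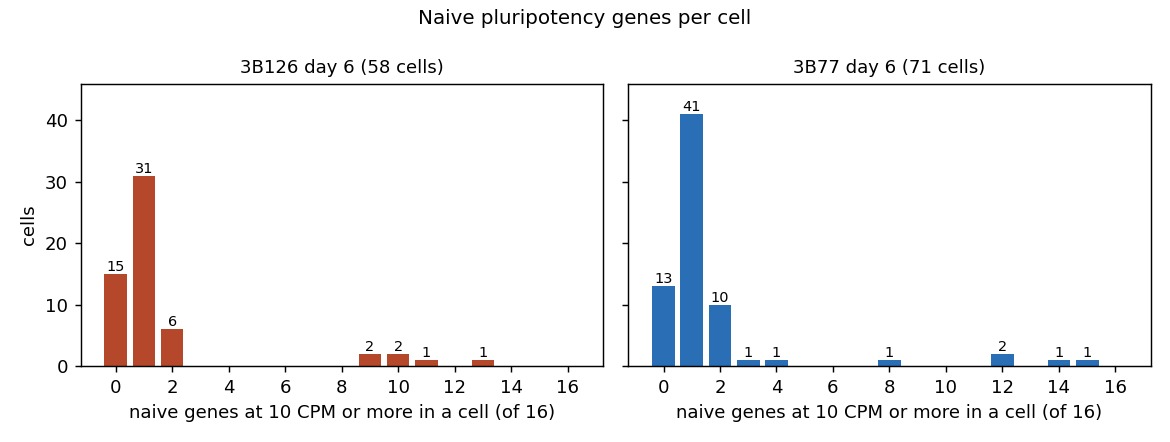
Number of cells (y axis) by the number of 16 naive pluripotency genes at 10 CPM or more in the cell (x axis), for 3B126 (left, 58 cells) and 3B77 (right, 71 cells) at day 6. In 3B126 no cell lies between 3 and 8 genes and 6 cells lie at 9 to 13, and in 3B77 5 cells lie at 8 to 15.

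The naive genes of these cells were shared in part between the clones. The cells were chosen by the 16 genes, so the values of these are a description only. Esrrb, an orphan nuclear receptor and 1 of the 16, was present in 6 of the 6 cells of 3B126 and 5 of the 6 cells of 3B77. Of the same 16, Klf4 was present in 0 of 6 in 3B126 and 4 of 6 in 3B77, Tbx3 in 1 of 6 in 3B126 and 5 of 6 in 3B77, and Dppa3 in 0 of 6 in 3B126 and 2 of 6 in 3B77. Cdh1, the epithelial cadherin of ESCs and outside the 16, was present in 6 of 6 in 3B126 and 6 of the other 52, and in 6 of 6 in 3B77 and 4 of the other 65. Dppa2, a chromatin-bound factor of pluripotent cells, was present in 5 of 6 in 3B126 and 2 of the other 52, and in 3 of 6 in 3B77 and 0 of the other 65. Genes of a KRAB zinc finger cluster on chromosome 4 were found in most of these cells, but not only there. Zfp980 was present in 5 of 6 in 3B126 and 3 of the other 52. In 3B77 it was in 4 of 6 and 0 of the other 65. Zfp982 was present in 6 of 6 in 3B126 and 9 of the other 52. In 3B77 it was in 5 of 6 and 6 of the other 65. Zfp985 was present in 5 of 6 in 3B126 and 18 of the other 52. In 3B77 it was in 5 of 6 and 14 of the other 65. Dnmt3b at 10 CPM or more was the reverse, with 0 of 6 in 3B126 and 27 of the other 52, and 0 of 6 in 3B77 and 26 of the other 65. Fgf5, a primed epiblast growth factor, was present in 0 of 6 in 3B126 and 10 of the other 52, and in 0 of 6 in 3B77 and 9 of the other 65. Other genes of later states were present in some of the cells, with Otx2 in 5 of 6 in 3B126 and 3 of 6 in 3B77, and Tubb3 in 4 of 6 in 3B126 and 4 of 6 in 3B77. The median mitochondrial share was 34.2% in the 6 cells of 3B126 and 29.04% in its others, and 20.9% in the 6 cells of 3B77 and 11.8% in its others. The part of that share in the gene levels was not tested.

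The highest ratios among pluripotency genes came from few cells. Dppa2 measured 104 CPM in 3B126 (101 to 108), against 4.32 CPM in 3B77 (3.61 to 5.14), a log2 ratio of 4.31. Only 7 cells of 3B126 and 3 cells of 3B77 held it, and 1 cell held 60.8% of its reads in 3B126 and 58.9% in 3B77. Cdh1 measured 294 CPM in 3B126 (287.8 to 300.9), against 19.6 CPM in 3B77 (18.1 to 21.3), a log2 ratio of 3.84, and 57.7 CPM in WT. Cdh1 was found in 12 cells of 3B126 (20.7%, 11.2 to 33.4) and 10 cells of 3B77 (14.1%, 6.97 to 24.4), and 1 cell of 3B126, at 7311 CPM, held 61.7% of its reads. For both genes the shares of cells overlap while the plate levels lie far apart. The 6 cells with 4 or more naive genes held 33.3% of the Cdh1 reads in 3B126 and 91.5% in 3B77. The cell at 7311 CPM was therefore not among them. In the other cells Cdh1 was at 225 CPM in 3B126 and 1.86 CPM in 3B77 (log2 ratio 6.30). Dppa2 was there at 35.8 CPM in 3B126 and 0.111 CPM in 3B77. Without the top cell of each plate the log2 ratio was 3.96 for Dppa2 and 3.51 for Cdh1. At day 3 Dppa2 was at 785 CPM in 3B126 and 126.03 CPM in 3B77, while Cdh1 was at 138 CPM in 3B126 and 163 CPM in 3B77.

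Other pluripotency genes lay closer together. Of the 13 core genes tested, 6 were higher past 2-fold, 2 of them past 4-fold, and none was lower past 2-fold, with a median of 0.85. Among all genes, 25.4% were higher past 2-fold, 7.4% higher past 4-fold and 11.8% lower past 2-fold. Sox2, which neural progenitors share with pluripotent cells, measured 79.9 CPM in 3B126 and 20.4 CPM in 3B77 (log2 ratio 1.92), and 185 CPM in 3B126 and 40.2 CPM in 3B77 at day 3. It was present in 62.1% of 3B126 cells (48.4 to 74.5) and 50.7% of 3B77 cells (38.6 to 62.8). Pou5f1 (Oct4) was at 19.3 CPM in 3B126 and 31.2 CPM in 3B77, and in 44.8% of 3B126 cells (31.7 to 58.5) and 61.97% of 3B77 cells (49.7 to 73.2). Sox2 and Pou5f1 thus lay on opposite sides in both level and share of cells, within overlapping intervals of the shares, and with the GC trend removed the ratio of Pou5f1 was 0.01. Of the 16 naive genes, 6 were tested, of which 2 were higher past 2-fold and none past 4-fold, with Zfp42 at 95.5 CPM in 3B126 and 25.9 CPM in 3B77. Nanog was at 73.3 CPM in 3B126 and 46.5 CPM in 3B77, in 72.4% of 3B126 cells and 73.2% of 3B77 cells. Over cells within a plate, the RNA-binding L1td1 was among the 5 genes most correlated with Pou5f1 in both clones, with a Spearman rho of 0.66 over the 58 cells of 3B126 and 0.55 over the 71 cells of 3B77, where cells share a plate and differ in depth.

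Neural progenitor genes split, with Pax6 high in 3B126 and Pax3 and Nes high in 3B77. Pax6 (chr2:105668900-105697364, plus strand) measured 67.5 CPM in 3B126 (64.4 to 70.7), against 6.0 CPM in 3B77 (5.15 to 6.95), a log2 ratio of 3.29, and 11.7 CPM in WT. It was present in 16 cells of 3B126 (27.6%, 16.7 to 40.9) and 8 cells of 3B77 (11.3%, 4.99 to 21), and its highest cell had 844 CPM in 3B126 and 181 CPM in 3B77. Thinned to 50000 reads, 29.3% of 3B126 cells and 12.7% of 3B77 cells had a read of Pax6. The intervals of the shares overlap, and the ratio was 3.41 without the top cell of each plate, 3.22 with the GC trend removed and 2.52 on plain CPM. At day 3 the order was the other one, with 7.98 CPM in 3B126 and 17.9 CPM in 3B77. Pax3 (chr1:78101267-78197134, minus strand) measured 1.58 CPM in 3B126 (1.14 to 2.14), against 15.8 CPM in 3B77 (14.4 to 17.3), a log2 ratio of -2.70, and 11.6 CPM in WT. It was present in 3 cells of 3B126 (5.17%, 1.08 to 14.4) and 27 cells of 3B77 (38.03%, 26.8 to 50.3). The intervals of the Pax3 shares do not overlap, and after thinning the shares were 5.17% in 3B126 and 32.4% in 3B77. Pax3 was under 1 CPM in both clones at day 3. Nes, an intermediate filament of neural progenitors, measured 4.03 CPM in 3B126 and 27.2 CPM in 3B77 (log2 ratio -2.49), in 12.1% of 3B126 cells (4.99 to 23.3) and 60.6% of 3B77 cells (48.3 to 71.97). A lower share of cells in 3B126, as for Pax3 and Nes, was seen for 6238 of the 7541 genes tested. Cells of 1 plate are not replicates, so intervals that do not overlap are no test between the clones.

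The promoter of Pax6 is shown because Pax6 was the neural gene with the highest ratio. CpG dinucleotides are marked as the sites on which DNMT3B acts. Both clones are labelled null for Dnmt3b, so the comparison cannot show an effect of its loss. The line gives the RefSeq window of 300 bases around its first annotated start, chr2:105668646-105668945 on the plus strand of GRCm38.p6, with each CG in capitals. It holds 18 CpG, against a median of 7 over 32851 windows, and 29.7% of all windows hold as many or more. Methylation was not measured in these cells.

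Pax6: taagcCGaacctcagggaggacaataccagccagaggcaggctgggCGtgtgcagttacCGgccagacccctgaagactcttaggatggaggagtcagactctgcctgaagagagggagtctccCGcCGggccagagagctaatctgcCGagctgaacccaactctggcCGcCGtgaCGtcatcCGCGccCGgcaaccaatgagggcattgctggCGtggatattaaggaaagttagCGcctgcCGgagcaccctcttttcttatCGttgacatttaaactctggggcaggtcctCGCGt

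Other members of the neural list fell on either side. Of 10 genes tested, 4 were higher past 2-fold, 2 of them past 4-fold, and 5 were lower past 2-fold, 3 of them past 4-fold, with a median of -0.84. Past 2-fold, 25.4% of all genes were higher and 11.8% lower, and past 4-fold 7.4% were higher and 1.27% lower. Lhx2, a forebrain and eye field homeobox gene, measured 51.3 CPM in 3B126 and 9.32 CPM in 3B77 (log2 ratio 2.34), and 0.246 CPM in WT. Cells with Lhx2 numbered 19 in 3B126 (32.8%) and 15 in 3B77 (21.1%). Sox1, the early neural plate factor, was at 48.1 CPM in 3B126 and 16.3 CPM in 3B77, in 29 of the 58 cells of 3B126 (36.6% to 63.4%) and 35.2% of 3B77 cells (24.2 to 47.5). Meis2 was at 138 CPM in 3B126 and 55.05 CPM in 3B77. These homeobox and Sox genes had higher levels in 3B126, while Nnat, an imprinted gene of the early nervous system, was at 7.81 CPM in 3B126 and 37.5 CPM in 3B77 (log2 ratio -2.13). With the GC trend removed, the log2 ratio was -1.40 for Nnat and -1.93 for Nes, both within 4-fold. The median of the list minus that of all genes was -1.07 on the log2 scale, but -0.02 with the GC trend removed, -0.19 with equal weight for each cell and -0.14 after thinning, so that no shift of the whole list is read from it. Over all genes tested, the share of cells with the gene was higher in 3B126 for 12.9% of genes, and Pax6, Lhx2, Sox1 and Sox2 were among them. Such a share is common among genes with a high ratio, as 352 of the 558 genes higher past 4-fold had it.

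Pairs of these genes were counted in single cells. Pax3 and Sox1 were together in 1 cell of 3B126 and 13 cells of 3B77, while Pax3 in all was in 3 cells of 3B126 and 27 cells of 3B77 and Sox1 in 29 cells of 3B126 and 25 cells of 3B77. The joint counts were not compared with those the single counts would give. Pax6 and Pax3 were together in 1 cell of 3B126 and 5 cells of 3B77. Pax6 and Otx2, a factor of both epiblast and anterior neural tissue, were together in 15 of the 16 Pax6 cells of 3B126 and 6 of the 8 in 3B77. Of the 3B126 genes compared over cells, Otx2 was also the one most correlated with Pax6 (Spearman rho 0.49, 58 cells, 6161 genes). Pax6 and Pou5f1 met in 3 cells of 3B126 and 4 cells of 3B77, and 15 of the 16 Pax6 cells of 3B126 and 8 of the 8 in 3B77 had Tubb3, which was in 79.3% of all 3B126 cells and 88.7% of all 3B77 cells.

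**Figure D3:**
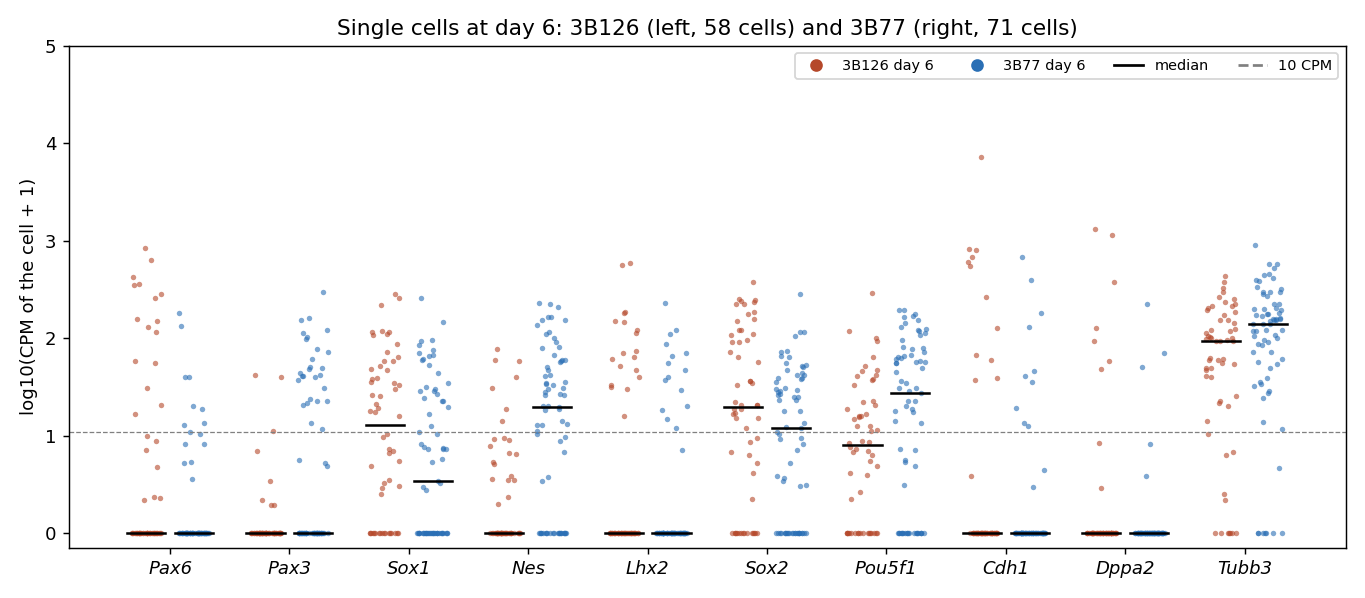
Level of 10 genes in single cells at day 6, as log10 of the cell's CPM + 1 (y axis), for 3B126 (red, left of each pair, 58 cells) and 3B77 (blue, right, 71 cells), with the median as a bar and 10 CPM as a dashed line. Pax6 reaches 844 CPM in 3B126 and 181 CPM in 3B77, Pax3 lies above the line in 3 cells of 3B126 and 27 cells of 3B77, and 1 cell of 3B126 stands apart for Cdh1 at 7311 CPM.

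Of 11 primed epiblast genes tested, 6 were higher in 3B126 past 2-fold, 3 of them past 4-fold, and 2 were lower past 2-fold, with a median of 1.05, beside 25.4% of all genes higher past 2-fold, 7.4% higher past 4-fold and 11.8% lower past 2-fold. The median minus that of all genes was 0.82, and it was 0.38 without cells over 20% mitochondrial reads and 0.49 without the deepest cell of each plate. Otx2 was at 209 CPM in 3B126 and 92.7 CPM in 3B77, in 77.6% of 3B126 cells (64.7 to 87.5) and 63.4% of 3B77 cells (51.1 to 74.5). Zic5 measured 92.7 CPM in 3B126 and 16.2 CPM in 3B77 (log2 ratio 2.45), in 29 cells of 3B126 and 33 cells of 3B77. Slc7a3, an arginine transporter, lay just past the limit at 129 CPM in 3B126 and 31.4 CPM in 3B77, and had a log2 ratio of 1.95 with the GC trend removed. Lefty2, an inhibitor of Nodal signals, had 81.3 CPM in 3B126 and 11.7 CPM in 3B77 (log2 ratio 2.69), in 8 cells of 3B126 and 9 cells of 3B77. A single cell of 3B126 held 68.8% of the Lefty2 reads, and the ratio was 1.49 without the top cells and -1.91 without cells over 20% mitochondrial reads. The related inhibitor Lefty1 was on the other side, at 2.87 CPM in 3B126 and 12.9 CPM in 3B77, and Pim2, a kinase, was at 16.4 CPM in 3B126 and 48.9 CPM in 3B77. Without cells over 20% mitochondrial reads the log2 ratio of Zic5 was 0.63.

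Neuronal genes were near each other in level on the scaled values. Of 7 tested, 2 were higher past 2-fold and none lay past 4-fold, with a median of 0.09 that became 0.64 with the GC trend removed. The share of all genes higher past 2-fold was 25.4%. Tubb3, the neuronal beta tubulin, was at 114 CPM in 3B126 and 118 CPM in 3B77, and Stmn2, a microtubule regulator of neurons, at 295 CPM in 3B126 and 280 CPM in 3B77. Tubb3 was present in 79.3% of 3B126 cells and 88.7% of 3B77 cells. Nefl, the light neurofilament, was at 70.8 CPM in 3B126 and 19.2 CPM in 3B77, in 27.6% of 3B126 cells and 35.2% of 3B77 cells. On plain CPM the log2 ratio of Tubb3 was -0.88 and that of Stmn2 -0.76.

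Retinoic acid and Wnt genes were read as signal lists, beside 25.4% of all genes higher and 11.8% lower past 2-fold. Of 5 retinoic acid genes tested, 2 were lower past 2-fold and 1 higher, with a median of -0.88. Crabp1, which binds retinoic acid in the cytoplasm, measured 25.9 CPM in 3B126 and 112 CPM in 3B77 (log2 ratio -2.07), beside 934 CPM in WT, and 1 cell of 3B77 held 55.2% of its reads. Without the top cells that ratio was -1.35. Cyp26a1, which degrades retinoic acid, was at 2.87 CPM in 3B126 and 10.2 CPM in 3B77. Rdh10, which makes its aldehyde precursor, was the exception at 38.99 CPM in 3B126 and 4.96 CPM in 3B77 (log2 ratio 2.75), and it turned to -0.81 without cells over 20% mitochondrial reads. Of 7 Wnt genes tested, 5 were higher past 2-fold and none lower, with a median of 1.48. The secreted antagonist Sfrp1 was at 189 CPM in 3B126 and 49.6 CPM in 3B77, in 82.8% of 3B126 cells (70.6 to 91.4) and 67.6% of 3B77 cells (55.5 to 78.2). The receptor Fzd7 was at 129 CPM in 3B126 and 45.5 CPM in 3B77. The ligand Wnt5a alone lay past 4-fold, at 15.3 CPM in 3B126 and 0.738 CPM in 3B77, and 1 cell of 3B126 held 93.1% of its reads. Hoxa9 was at 13.8 CPM in 3B126, with 99.7% of its reads in 1 cell, and had 0 reads in 3B77.

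Imprinted genes, whose parental alleles differ in methylation, moved in both directions. Of 16 tested, 3 were higher past 2-fold, 2 of them past 4-fold, and 4 were lower past 2-fold, with a median of 0.43 that became -0.10 with the GC trend removed. Of all genes, 25.4% were higher and 11.8% lower past 2-fold. Peg3, a paternally expressed zinc finger gene, measured 723 CPM in 3B126 (713 to 734), against 141 CPM in 3B77 (137 to 145), and 1987 CPM in WT. The log2 ratio was 2.35, with Peg3 present in 65.5% of 3B126 cells and 67.6% of 3B77 cells, and it was 0.08 without cells over 20% mitochondrial reads. Magel2 was at 24.5 CPM in 3B126 and 5.23 CPM in 3B77. Impact was at 1388 CPM in 3B126 and 383 CPM in 3B77, and at 6558 CPM in 3B126 and 551 CPM in 3B77 at day 3. Igf2r, a maternally expressed receptor, was at 13.8 CPM in 3B126 and 50.1 CPM in 3B77 (log2 ratio -1.78). The 3 genes past 2-fold higher are paternally expressed, and among the 4 lower genes were the paternally expressed Peg12 and the maternally expressed Igf2r, Cdkn1c and Phlda2. The imprinted Nnat, read with the neural list above, is not among the 16 and was lower past 4-fold (log2 ratio -2.13).

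Germline genes, which promoter methylation keeps silent in somatic cells, stayed low in both clones. Of 30 listed, 4 reached 10 CPM in a plate, 2 of them higher past 2-fold, and with the GC trend removed the median of the 4 was 0.62. The share of all genes higher past 2-fold was 25.4%. Ddx4, the germ cell RNA helicase Vasa, measured 28.5 CPM in 3B126 (26.5 to 30.7), against 5.53 CPM in 3B77 (4.72 to 6.44), a log2 ratio of 2.18, and 4.37 CPM in WT. It was present in 12 cells of 3B126 (20.7%, 11.2 to 33.4) and 12 cells of 3B77 (16.9%, 9.05 to 27.7). The cells were equal in number, the ratio was 1.49 with the GC trend removed, and it was -1.08 without cells over 20% mitochondrial reads. Sycp3, of the meiotic synaptonemal complex, was at 15.9 CPM in 3B126 and 8.08 CPM in 3B77, and 1 cell of 3B126 held 99.8% of its reads. The promoter of Ddx4 is shown as the CpG-dense case of this class, in the RefSeq window chr13:112652261-112652560 on the minus strand of GRCm38.p6, with each CG in capitals. It holds 38 CpG, and 4.95% of all windows hold as many or more.

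Ddx4: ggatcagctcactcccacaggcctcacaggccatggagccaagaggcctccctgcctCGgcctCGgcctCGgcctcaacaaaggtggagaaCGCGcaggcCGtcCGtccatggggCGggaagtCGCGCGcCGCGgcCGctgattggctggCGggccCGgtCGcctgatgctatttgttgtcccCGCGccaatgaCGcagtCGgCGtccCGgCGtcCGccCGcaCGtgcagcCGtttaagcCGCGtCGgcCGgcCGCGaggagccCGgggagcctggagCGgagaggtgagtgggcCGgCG

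The glycolytic enzymes Pkm, Aldoa and Eno1 were lower in 3B126, by an amount that depended on the setting. Of 16 hypoxia and glycolysis genes tested, 5 were lower past 2-fold and 2 higher, with a median of -0.46. Among all genes, 11.8% were lower and 25.4% higher past 2-fold. Pkm, pyruvate kinase, was at 213 CPM in 3B126 and 636 CPM in 3B77 (log2 ratio -1.58). Aldoa, aldolase, was at 497 CPM in 3B126 and 1287 CPM in 3B77, and Eno1, enolase, at 192 CPM in 3B126 and 454 CPM in 3B77. These enzymes were present in all 58 cells of 3B126 and all 71 cells of 3B77, and with the GC trend removed the ratio of Pkm was -0.89, that of Aldoa -0.73 and that of Eno1 -0.57. Pdk1, a kinase that keeps pyruvate out of the mitochondrial cycle, lay on the other side at 132 CPM in 3B126 and 28.5 CPM in 3B77. Ndrg1 was at 2.26 CPM in 3B126 and 15.7 CPM in 3B77 (log2 ratio -2.36), with 70.4% of its 3B77 reads in 1 cell. The median of this list minus that of all genes was -0.69, and it was -0.0013 without cells over 20% mitochondrial reads.

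Among 6 genes of p53 and stress responses, 2 were higher past 4-fold and 1 lower past 2-fold, beside 7.4% and 11.8% of all genes. Ccng1 measured 753 CPM in 3B126 and 163 CPM in 3B77, and Trp53inp1 146 CPM in 3B126 and 34.5 CPM in 3B77. Cdkn1a, the cell cycle inhibitor and best known p53 target, was at 6.52 CPM in 3B126 and 19.6 CPM in 3B77, so that targets of p53 lay on both sides. Replication and division genes were near the middle, with medians of -0.08 over 16 S phase genes and -0.01 over 18 genes of G2 and mitosis and none past 4-fold. Pcna, the replication clamp, was at 1671 CPM in 3B126 and 637 CPM in 3B77, and Cenpf, a kinetochore protein, at 925 CPM in 3B126 and 336 CPM in 3B77.

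Among the 20 lists with 3 or more members tested, mitochondrially encoded, satellite-like, KRAB zinc finger, Wnt and germline genes had the medians farthest above that of all genes. The counts below stand beside 25.4% of all genes higher past 2-fold and 7.4% past 4-fold. Without cells over 20% mitochondrial reads, the median minus that of all genes was 0.50 for Wnt genes and -0.39 for germline genes, and with all cells it was 1.25 for Wnt genes and 1.12 for germline genes. Of 15 mitochondrial genes tested, 12 were higher past 2-fold and 7 past 4-fold, with a median of 1.88 that became 0.52 with the GC trend removed. mt-Nd1, a subunit of respiratory complex I, measured 22797 CPM in 3B126, 3457 CPM in 3B77 and 16813 CPM in WT. The 16S ribosomal RNA mt-Rnr2 was at 268462 CPM in 3B126 and 72983 CPM in 3B77. All 4 satellite-like predicted genes tested were higher past 2-fold, 3 of them past 4-fold, with a median of 2.22 at day 6, which became 0.79 with the GC trend removed, and of 6.13 at day 3. Gm10800 was at 749 CPM in 3B126 and 131 CPM in 3B77, and at 16714 CPM in 3B126 and 241 CPM in 3B77 at day 3. Such genes have near-identical copies, and the authors left out reads that map to several places, so their levels are uncertain. Of 9 KRAB zinc finger genes of the chromosome 4 cluster, 5 were higher past 2-fold and 3 past 4-fold, with a median of 1.24 that became -0.02 with the GC trend removed. Zfp982 measured 109 CPM in 3B126 and 8.48 CPM in 3B77 (log2 ratio 3.54), and the 6 cells with 4 or more naive genes held 63.8% of its reads in 3B126 and 75.5% in 3B77. At day 3 Zfp982 was at 1787 CPM in 3B126 and 80.9 CPM in 3B77, the same direction. Genes of this cluster are close copies as well.

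**Figure D4:**
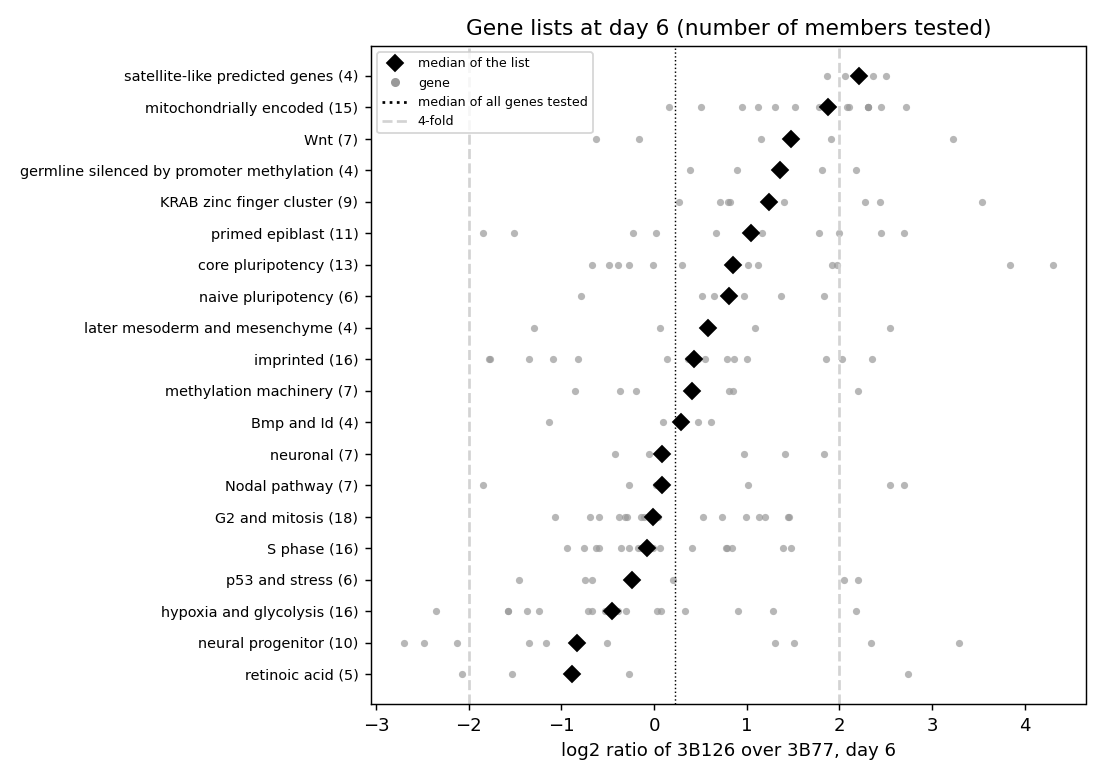
Log2 ratio of 3B126 over 3B77 at day 6 (x axis) for the members tested (grey points) of 20 gene lists with 3 or more members tested (y axis, number tested in brackets), with the median of each list (diamond), the median of all genes at 0.23 (dotted line) and 4-fold (dashed lines). Medians run from 2.22 for satellite-like genes to -0.88 for retinoic acid genes, and the neural progenitor list reaches from -2.70 for Pax3 to 3.29 for Pax6.

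Y-linked genes and Xist were read in each plate. The Y-linked Kdm5d, Ddx3y, Uty and Eif2s3y together had 0 reads in 3B126 and 0 reads in 3B77 at day 6, where 3 reads are worth 0.113 CPM in 3B126 and 0.101 CPM in 3B77. In WT at day 6 they had 1821 reads in 40 of 67 cells, or 89.5 CPM. Both knockout plates of day 6 thus gave no signal from genes read in most WT cells of that day. The day 3 plates gave 1 read in 3B126 and 0 in 3B77. In WT the share differed by day, with Y-linked reads in 30 of 74 cells at day 3 and 4 of 89 cells at day 8. At day 8 the plate labelled 3B126 had 0 Y-linked reads in 51 cells, while the plate labelled 3B77 had 1279 in 14 of 40 cells, or 110 CPM, with Xist at 0. The day 8 plate labelled 3B77 thus stands apart from the day 3 and day 6 plates of the same label, the cause was not tested, and no other level from it is given here. Xist, the RNA of X inactivation, was at 138 CPM in 3B126 and 77.6 CPM in 3B77, in 11 cells of 3B126 and 23 cells of 3B77. Its antisense partner Tsix was at 13.4 CPM in 3B126 and 1.01 CPM in 3B77, with 82.9% of the 3B126 reads in 1 cell, and without a stated strand setting reads of Xist and Tsix cannot be told apart.

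The genes with the most extreme ratios that at least 25% of the cells of the higher plate carried, and that stayed past 4-fold without their top cell, were named in each direction, 12 of each. Zfp275, an X-linked zinc finger gene, led the higher genes at 150 CPM in 3B126 and 6.0 CPM in 3B77 (log2 ratio 4.43). Ptprg, a receptor tyrosine phosphatase, was at 205 CPM in 3B126 and 13.7 CPM in 3B77, and Ppp3cb, a catalytic subunit of calcineurin, at 169 CPM in 3B126 and 13.9 CPM in 3B77. Rbm12, an RNA-binding protein gene, was at 276 CPM in 3B126 and 24.7 CPM in 3B77, in 43 cells of 3B126 and 44 cells of 3B77. Ror1, a receptor for Wnt5a, was at 97.2 CPM in 3B126 and 8.78 CPM in 3B77, with 62.5% of the 3B126 reads in 1 cell. Without cells over 20% mitochondrial reads the log2 ratio was 0.18 for Ptprg and 1.06 for Ror1. Zfp982, AW146154, Zfp944, Gm7072, Gm46430, Ankrd13c and Pax6 complete the higher genes, with log2 ratios from 3.29 to 3.54.

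The lower genes included ribosomal RNA neighbours and genes spread over most 3B77 cells. Gm26917 measured 304 CPM in 3B126 and 5595 CPM in 3B77 (log2 ratio -4.20), and its neighbour on chromosome 17, Gm42418, 438 CPM in 3B126 and 4403 CPM in 3B77. Both lie at a ribosomal RNA repeat, a source of reads with many copies, and both were present in every cell of both plates. Gpx3, a secreted glutathione peroxidase, was at 3.17 CPM in 3B126 and 41.1 CPM in 3B77, in 4 cells of 3B126 and 41 cells of 3B77. Vcl, vinculin of cell adhesions, was at 3.32 CPM in 3B126 and 32.2 CPM in 3B77, in 5 cells of 3B126 and 43 cells of 3B77. Kmt2d, a histone H3 methyltransferase of enhancers, was at 9.16 CPM in 3B126 and 69.1 CPM in 3B77, in 16 cells of 3B126 and 65 cells of 3B77. Rgs9 reached 10 CPM in 0 cells of 3B126 and 41 cells of 3B77. Gpx3, Vcl, Kmt2d and Rgs9 were thus in fewer cells of 3B126, as were 6238 of the 7541 genes tested by share of cells. Mir6236, Hist1h3d, Serinc2, Ddit4, Ctsa and 2210408I21Rik complete the lower genes, with log2 ratios from -3.87 to -2.75. All 24 genes stayed past 4-fold on plain CPM and with the GC trend removed, and 19 of the 24 did so without cells over 20% mitochondrial reads, where Ptprg, Ror1, AW146154 (0.92), Gm46430 (0.61) and Ddit4 (-1.24) fell within it.

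Many of the higher genes rested on few cells. For 177 of the 558 higher genes 1 cell held at least 50% of the reads in 3B126, and for 13 of the 96 lower genes 1 cell did so in 3B77. The same was true of 551 of all 7541 genes in 3B126 and of 178 in 3B77. Without the top cell of each gene, 368 of the 558 and 83 of the 96 were still past 4-fold. The median share of cells with a gene at 10 CPM was 41.4% in 3B126 and 60.6% in 3B77.

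Few of the differences were seen between the same clones at day 3. Of the 558 genes higher at day 6, 79 (14.2%) were higher past 4-fold at day 3, 77 were lower past 4-fold and 221 lay within 2-fold, beside 9.11% higher and 12.4% lower past 4-fold among all 7541 genes. Of the 96 lower genes, 26 (27.1%) were lower past 4-fold at day 3, 1 was higher past 4-fold and 44 lay within 2-fold. The median day 3 log2 ratio was -0.09 over the 558 genes, -0.90 over the 96 genes and -0.20 over all genes. Past 4-fold the same way at day 3 were thus 27.1% of the lower genes, beside 12.4% of all genes. For the higher genes the share was 14.2%, beside 9.11% of all genes. Gpx3 was at 0.618 CPM in 3B126 and 16.8 CPM in 3B77 at day 3, Ctsa at 3.76 CPM in 3B126 and 28.0 CPM in 3B77, and Nes at 0.899 CPM in 3B126 and 13.7 CPM in 3B77. Zfp275 was the other way at day 3, with 3.15 CPM in 3B126 and 22.9 CPM in 3B77. The day 3 plates carry the same clone and batch split, so that genes with 1 direction at both days do not separate clone from batch.

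**Figure D5:**
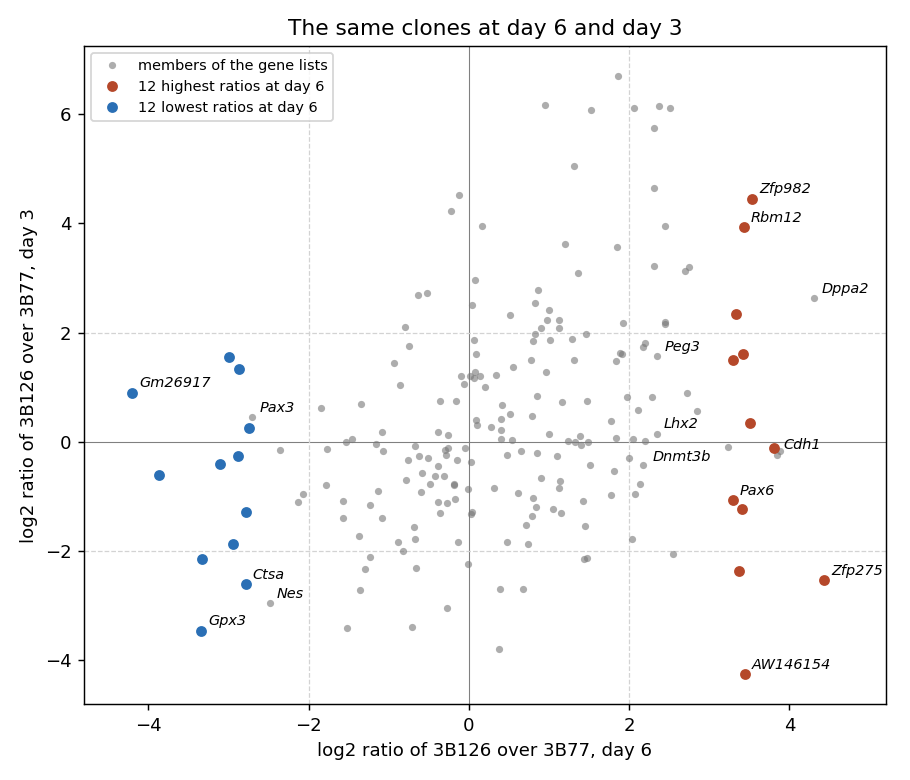
Log2 ratio of 3B126 over 3B77 at day 6 (x axis) and day 3 (y axis) for members of the gene lists (grey) and the 12 genes with the highest (red) and lowest (blue) named ratios at day 6, with dashed lines at 4-fold. Zfp982 and Rbm12 lie past 4-fold higher at both days, Gpx3 and Ctsa past 4-fold lower at both days, and Zfp275 and AW146154 lie past 4-fold higher at day 6 and lower at day 3.

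WT cells of day 6, which share batch 2 with 3B126, lay between the clones for most of these genes. The WT level was between both for 411 of the 558 higher genes (73.7%), above both for 39 and below both for 108. For the 96 lower genes it was between both for 82 (85.4%). Among all 7541 genes it was between both for 42.4%, and a wide gap between the clones leaves more room for a level in between. Of the 558 higher genes, 184 lay past 4-fold from WT in 3B126 and 106 in 3B77, and of the 96 lower genes, 23 in 3B126 and 15 in 3B77. For Pax6 (11.7 CPM) and Ddx4 (4.37 CPM) the WT plate was nearer to 3B77, and for Dnmt3b it was nearer to 3B126.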

How the data were processed

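Single live cells were sorted into 96-well plates and copied by modified Smart-seq2 with 25 cycles of PCR, and single-end reads of 75 bases were made. The deposited table, made by the authors, holds raw counts of reads for each gene in each cell. Reads were checked with FastQC 0.11.2, trimmed with Trim Galore 0.5.0, aligned to mm10 with STAR 2.7.1a and assigned with featureCounts 1.6.1, which counted exon reads for each gene name of GENCODE M23, per the study's methods and the submitters' processing notes. Reads mapping to several places were left out. The sources used here do not say whether counting used strand. The 36849 genes were summed over the cells of a plate, and 14 sums of clone and day were scaled with TMM (edgeR 4.0.16, R 4.3.3). Genes needed 10 CPM in 1 plate of day 6 and a read in batches 2 and 3 (7541 of 7544). Ratios used a pseudocount of 1 CPM. Shares of cells used 10 CPM of the cell's own reads. GC content and positions came from GENCODE M21, with the GC trend fitted by lowess (span 0.3, statsmodels 0.14.6), and promoters from RefSeq, where 33 of 60 named genes past 4-fold matched. Intervals at 95% used scipy 1.17.1. Size factors of DESeq2 1.42.0, other filters, pseudocounts and sets of cells were alternatives, of which the GC trend and the removal of top cells were added after seeing the data. The calculation was tested on simulated data. Genes named were the methylation genes, list members past 4-fold with the best known others of a list, the 12 most extreme in each direction among 309 genes that at least 25% of cells carried and that stayed past 4-fold without their top cell, and those of these past 4-fold the other way at day 3. The members and lists were chosen with earlier results of these data known. Some genes that meet the rule for naming are not reported here by name, but count in the totals.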

Additional observations from a re-analysis of the deposited data

Results flagged for a closer look

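For 3 named genes the log2 ratio of 3B126 over 3B77 lay past 4-fold in opposite directions at day 6 and day 3. Zfp275 had a ratio of 4.43 at day 6 and -2.53 at day 3. AW146154 had 3.44 at day 6 and -4.26 at day 3, where it had 0 reads in 3B126 and 18.1 CPM in 3B77, and 1 cell held 71.2% of its 3B126 reads at day 6. Gm46430 had 3.37 at day 6 and -2.37 at day 3. With 1 plate for each clone and day, the difference between the days was not tested.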

How the results depend on the processing

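With 558 genes higher and 96 lower past 4-fold as reported, the counts were 156 higher and 724 lower on plain CPM, 129 and 468 for the mean of the cells' own CPM, 321 and 18 with a pseudocount of 5 CPM, and 298 and 13 with a limit of 50 CPM. The higher count alone moved to 295 with the GC trend removed. The lower count alone moved to 154 with mitochondrial reads left out, to 387 without cells over 20% mitochondrial reads and to 260 with a limit of 1 CPM. Size factors by the median of ratios, thinning, leaving out the deepest cell of each plate or the top cell of each gene, and keeping genes unread in a batch left both counts within 1.5 times. A similar count need not hold the same genes, and thinning kept 393 of the 558 higher and 39 of the 96 lower genes. Over the 60 named genes past 4-fold and 10 alternatives, 455 of 593 values stayed past 4-fold and 133 fell within it in the same direction. The other 5 reversed, all without cells over 20% mitochondrial reads, which left 16 cells of 3B126: Lefty2 (-1.91), Rdh10 (-0.81), Wnt5a (-0.87), Ddx4 (-1.08) and Tsix (-0.016). Of the 60 genes, the 24 most extreme were chosen as staying past 4-fold without their top cell. For them that alternative was fixed in advance. Of 199 list medians, 23 changed side of the median of all genes, in 11 of 20 lists. The cause was not tested. No paired analysis was possible because each clone has 1 plate at day 6 and cells carry no replicate numbers.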
